A study of Homo sapiens with 4 samples.

Results

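The regions described are the narrowest FOXA2 peaks of each of 2 peak lists, chosen by their interval width, which had to be exactly the smallest in its list on chromosomes 1 to 22 and X. In the vehicle list this width was 1 bp under 176 bp and 1674 of 21065 peaks had it (7.95%). It was 168 bp in the GSK2879552 list, where 1340 of 14642 peaks had it (9.15%). In all, 3014 of 35707 peaks were minimum-width peaks. The lists come from FOXA2 chromatin immunoprecipitation sequencing (ChIP-seq) in PC3, an established human prostate cancer cell line, kept in the same medium and given either vehicle or 50 µM GSK2879552 for 4 hours; the labels give no separate duration for the vehicle. Each group has 2 samples, the lanes of 1 library, and 1 peak list made from both, so nothing measures how cultures vary, and every difference below is between 2 libraries and carries no test. ATAC-seq is named in the sample descriptions but FOXA2 ChIP-seq in the titles and series text, which were followed.

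FOXA2 is a forkhead transcription factor known as a pioneer factor, able to bind its sites in compact chromatin. GSK2879552 inhibits LSD1 (KDM1A), a histone demethylase. A ChIP-seq peak caller marks the stretch where immunoprecipitated fragments exceed the local background and names its densest base the summit. The caller used here, MACS2, by default reports no interval shorter than the fragment length it works with, so a minimum-width peak is the shortest stretch that it can report.

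Minimum-width peaks formed a sharp step in the width distribution of both lists rather than the end of a slope. The vehicle list had 1674 peaks at its smallest width. At each of the next 40 widths it had between 93 and 128 peaks, with a median of 110.0, so the smallest width was 15.2 times as frequent as the median of its neighbours. The GSK2879552 list had 1340 peaks at 168 bp against 70 to 111 at each of the next 40 widths, with a median of 82.5 and a ratio of 16.2. Both lists therefore carried the step at their own smallest width and in similar proportion.

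**Figure D1:**
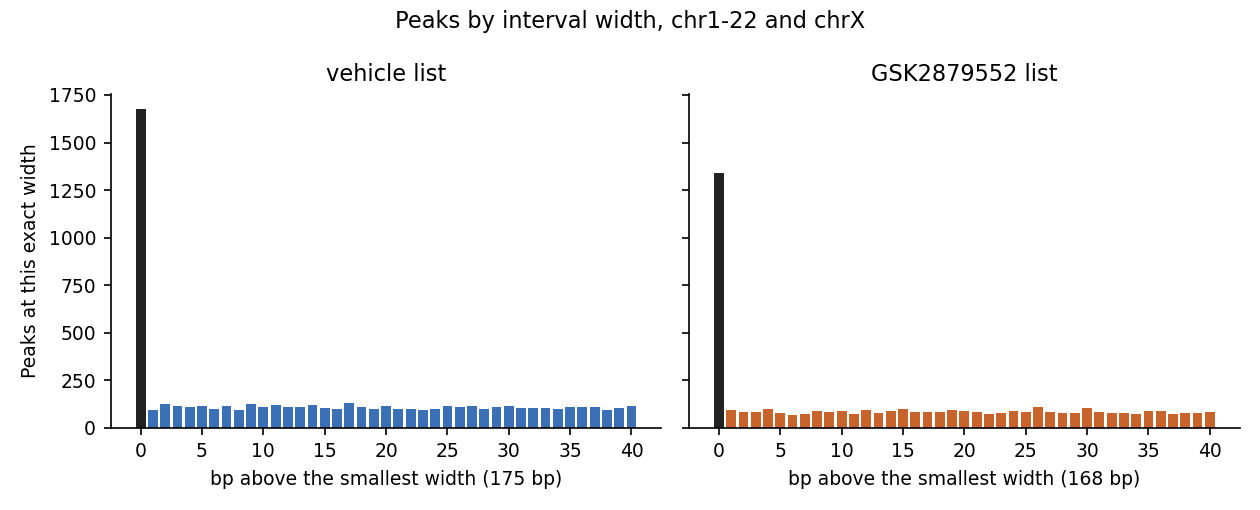
Number of peaks (vertical axis) at each exact interval width from the smallest to 40 bp above it (horizontal axis), for the vehicle list on the left and the GSK2879552 list on the right, with the smallest width in black. The black bars stand at 1674 and 1340 peaks, and no other bar passes 128 in vehicle or 111 in GSK2879552.

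Minimum-width peaks were weak sites by every value the peak caller gave. Width and strength come from the same reads of the same library, so these values describe the chosen peaks and support nothing further. The number of fragments covering a summit, recovered from the deposited fold and −log10 p, had a median of 11 in vehicle (interquartile range 10 to 13, lowest 7, highest 79). In GSK2879552 it was 12 (10 to 13, lowest 8, highest 185). Wider peaks had a median of 19 fragments in both lists (15 to 29 in vehicle and 14 to 26 in GSK2879552). Most minimum-width peaks lay in a narrow band: 1180 of the vehicle ones (70.5%) and 956 of the GSK2879552 ones (71.3%) had 10 to 13 fragments.

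The authors' deposited fold enrichment, the ratio of fragments plus 1 to local background plus 1, had a median of 5.19 at the vehicle minimum-width peaks (4.69 to 5.66). Wider vehicle peaks had 7.31. For GSK2879552 the medians were 5.16 (4.70 to 5.67) and 6.87. The deposited −log10 q, the caller's significance after correction for multiple testing, had a median of 5.04 in vehicle (range 1.58 to 9.17), against 11.1 for wider peaks. In GSK2879552 it was 4.81 (1.86 to 10.3), against 9.71. No vehicle minimum-width peak passed a −log10 q of 9.17, whereas wider vehicle peaks reached 260.0.

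The values changed between the smallest width and the next one. Vehicle peaks of the smallest width had a median of 11 fragments and a −log10 q of 5.04, and the 93 peaks of 176 bp had 13 fragments and 6.25. GSK2879552 peaks of 168 bp had 12 fragments and 4.81, and the 94 peaks of 169 bp had 13 and 5.69. The median number of fragments was 13 at 1 to 5 bp above the smallest width in both lists.

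Local background, the number of fragments expected at the position, was low around minimum-width peaks. Its median was 1.33 in vehicle and 1.36 in GSK2879552, against 1.70 and 1.75 at wider peaks. It stood at the genome-wide floor at 408 vehicle peaks (24.4%) and 299 GSK2879552 peaks (22.3%), compared with 9.14% and 8.24% of wider peaks. Peaks of similar width came closer. At 6 to 20 bp above the smallest width the floor shares were 19.7% in vehicle and 16.2% in GSK2879552. At 1 to 5 bp above it the vehicle share lay between 19.7 and 24.4%, and the GSK2879552 share was 14.4%. A background at the floor was thus not particular to the smallest width. A background of 25 fragments or more was rare at wider peaks too: 125 of 19391 in vehicle and 124 of 13302 in GSK2879552. Among minimum-width peaks, 1 in vehicle and 3 in GSK2879552 had it. The vehicle one was at chr4:49109731-49109905, with 79 fragments over a background of 35.6, and its GSK2879552 partner at chr4:49109736-49109904 had 68 over 31.7. The GSK2879552 ones were at chr10:42392221-42392388 with 185 fragments over 100.2, chr17:22258466-22258633 with 71 over 32.1 and chr17:22247910-22248077 with 59 over 27.8. These 4 peaks were singled out after their values were seen, and the deposited fold at them ran from 1.84 to 2.19.

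Summits of minimum-width peaks were spread over the interval. In vehicle the median summit lay 82.5 bp from the start, at 47.1% of the width (36.0 to 59.4%), and the extremes were 4 and 173 bp. In GSK2879552 it lay at 79 bp, 47.0% of the width (34.5 to 60.7%). The spread at 1 to 5 bp above the smallest width was much the same, 35.0 to 59.7% in vehicle and 33.1 to 60.0% in GSK2879552. Over all wider peaks it was tighter, 42.5 to 54.6% and 41.9 to 55.2%.

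Whether a minimum-width peak was also called in the other library was the main question, since the other list had no part in choosing it. Of the vehicle minimum-width peaks, 309 of 1674 overlapped a GSK2879552 peak by 1 bp or more (18.5%, exact 95% binomial interval 16.6 to 20.4), and 1365 did not. The same rule called 62.0% of all vehicle peaks overlapped, and 65.7% (65.0 to 66.4) of the wider ones. Of the GSK2879552 minimum-width peaks, 906 of 1340 overlapped a vehicle peak (67.6%, 65.0 to 70.1) and 434 did not, against 89.3% of all GSK2879552 peaks and 91.5% (91.0 to 92.0) of the wider ones. The intervals cover counting error only. In both lists the minimum-width peaks were thus overlapped less often than the rest, by more than that error.

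The 2 shares are not compared with each other as they stand, since the target lists differ and the vehicle list is the longer one. When only the 14642 vehicle peaks of highest −log10 p were kept, a setting added once the data had been seen, 42.2% (39.5 to 44.9) of the GSK2879552 minimum-width peaks overlapped it. That setting also removed the weakest vehicle peaks, so length and strength changed together. Why the 2 shares differ was not tested. A peak missing from 1 list was not called there and is not shown to be unbound.

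The overlapped share rose with width from the smallest class onward. In vehicle it was 18.5% at the smallest width, 24.1% (20.6 to 27.8) at 1 to 5 bp above it and 30.9% (28.7 to 33.2) at 6 to 20 bp above it. It reached 38.9% at 21 to 50 bp, 60.9% at 51 to 100 bp and 87.7% (86.9 to 88.3) beyond. In GSK2879552 the same classes gave 67.6%, 73.5% (69.1 to 77.5), 77.0% (74.5 to 79.3), 84.5%, 92.6% and 98.8% (98.5 to 99.1). In both lists the interval at the smallest width did not meet that at 6 to 20 bp above it; it touched that at 1 to 5 bp only in GSK2879552.

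**Figure D2:**
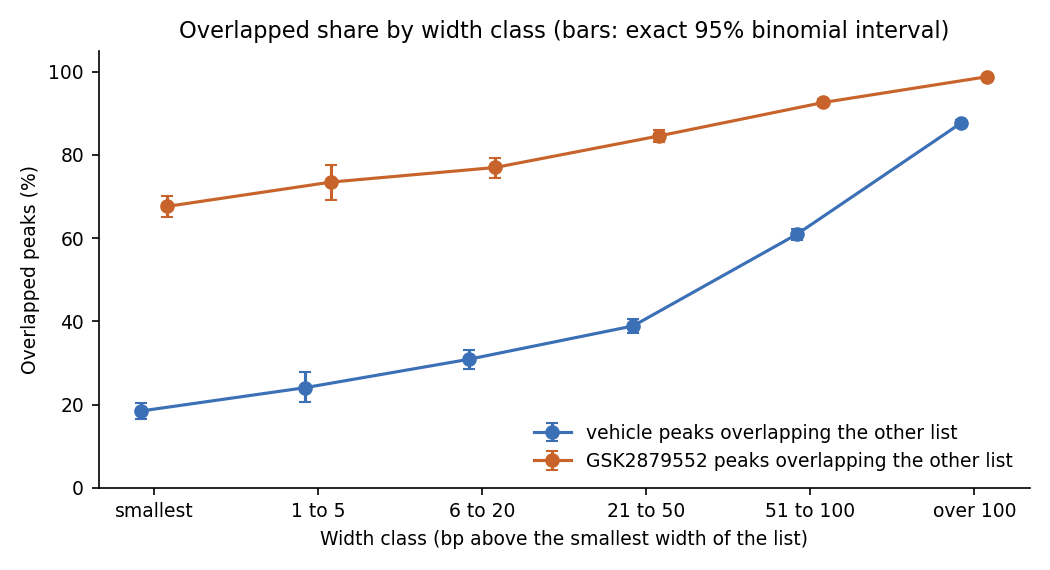
Percentage of peaks overlapping the other list by 1 bp or more (vertical axis) in 6 classes of width, given as bp above the smallest width of the list (horizontal axis), for vehicle peaks in blue and GSK2879552 peaks in orange; bars are exact 95% binomial intervals. The share climbs from 18.5 to 87.7% in vehicle and from 67.6 to 98.8% in GSK2879552.

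Since narrow peaks are weak, they were next set beside wider peaks of the same list with the same number of summit fragments. At 11 fragments, the commonest number, 60 of 365 vehicle minimum-width peaks overlapped (16.4%, 12.8 to 20.6), against 189 of 764 wider peaks (24.7%, 21.7 to 27.96). At 14 fragments the shares were 18.4% (11.5 to 27.3) and 38.5% (35.7 to 41.3), and at 16 fragments 17.5% (7.34 to 32.8) and 52.6% (49.7 to 55.5). From 8 to 16 fragments the share of wider vehicle peaks ran from 13.6 to 52.6%, and that of the minimum-width ones from 11.4 to 31.3%, with 14.4% (10.6 to 19.1) at 10 and 25% (19.3 to 31.5) at 13. At 9 fragments the shares were close, 14.5% and 14.6%.

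GSK2879552 peaks were compared in the same way. At 11 fragments 193 of 292 minimum-width peaks overlapped a vehicle peak (66.1%, 60.4 to 71.5), against 425 of 569 wider peaks (74.7%, 70.9 to 78.2). At 13 fragments the shares were 72.8% (65.1 to 79.6) and 81.6% (78.8 to 84.1), and at 16 fragments 75% (56.6 to 88.5) and 92.4% (90.3 to 94.2). Minimum-width peaks had the lower share at each of the 9 fragment numbers in vehicle, and each of the 8 in GSK2879552, that held 30 or more of them. Under that limit the order was not always the same. At 8 fragments in GSK2879552, 13 of 23 minimum-width peaks overlapped (56.5%, 34.5 to 76.8), against 13 of 27 wider peaks (48.1%, 28.7 to 68.1). These intervals met. Some GSK2879552 fragment numbers that held 4 or fewer minimum-width peaks, such as 22, also went this way.

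Averaged over fragment numbers with the minimum-width peaks as weights, wider vehicle peaks of equal fragments would have been overlapped at 29.6%. The minimum-width peaks were thus 11.1 percentage points lower (a difference of -11.1, counting interval -13.4 to -8.82). For GSK2879552 the wider peaks gave 76.8% and the difference was -9.19 points (-12.1 to -6.26). Local background moved with this comparison: at 16 fragments its median was 2.40 at vehicle minimum-width and 1.49 at wider peaks, and in GSK2879552 2.34 and 1.57. With background matched as well, in 4 bins, the differences were -8.43 (-10.8 to -6.07) and -8.41 points (-11.4 to -5.45). Against only those peaks 1 to 20 bp wider, they were -6.06 (-9.09 to -3.03) and -3.71 points (-7.58 to 0.17), the last interval including 0. These 2 settings were added once the data had been seen. A short interval also gives a peak less to overlap. With summits within 100 bp of each other counted instead of overlaps, the differences were -10.1 and -6.49 points. That rule does not separate interval length from strength or summit position, and the part of length was not tested.

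**Figure D3:**
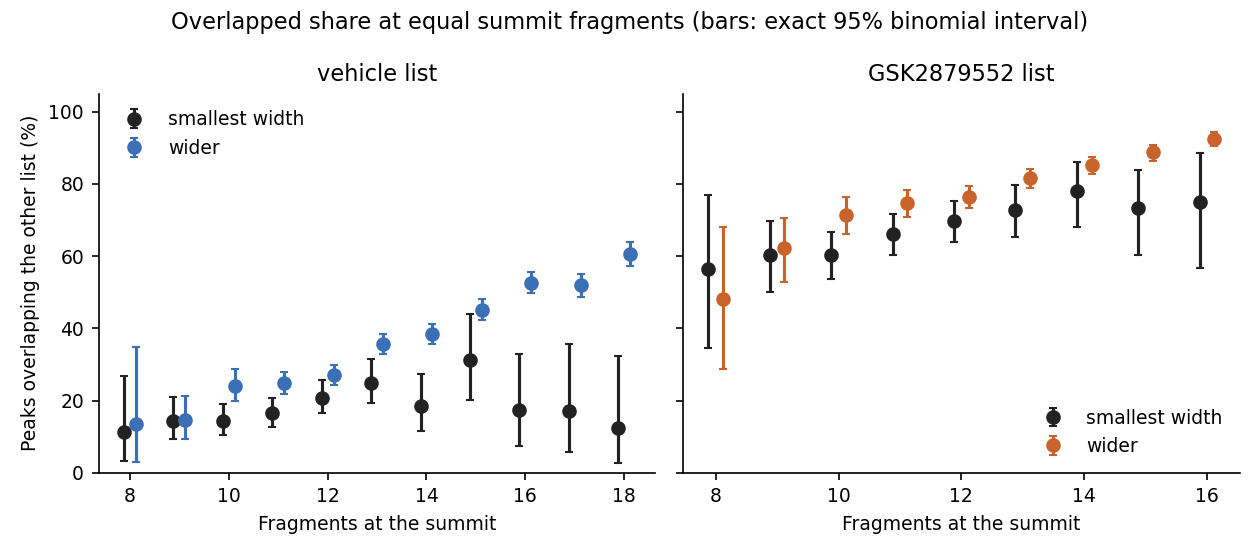
Percentage of peaks overlapping the other list (vertical axis) against the whole number of fragments at the summit (horizontal axis), for minimum-width peaks in black and wider peaks of the same list in colour, vehicle on the left and GSK2879552 on the right; bars are exact 95% binomial intervals, and fragment numbers with fewer than 20 minimum-width peaks are left out. In vehicle the black points stay at or below 31.3% while the coloured ones climb to 60.7%.

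Among the minimum-width peaks themselves, the overlapped share was higher in the strongest than in the weakest part of both lists. Split into 4 equal parts by −log10 p, the vehicle ones overlapped at 15.3% (12.0 to 19.1) in the weakest part, 14.6%, 19.9% and 24.1% (20.1 to 28.5) in the strongest. The GSK2879552 ones overlapped at 63.0% (57.6 to 68.2), 68.1%, 68.7% and 70.7% (65.6 to 75.6), and the intervals of the weakest and strongest part met here but not in vehicle. By fragments, the GSK2879552 share was 60.2% (53.5 to 66.5) at 10 and 78.0% (68.1 to 86.0) at 14, intervals that do not meet. At positions with background at the floor, 16.4% (12.96 to 20.4) of vehicle and 60.2% (54.4 to 65.8) of GSK2879552 minimum-width peaks overlapped, against 42.2% and 80.7% of wider peaks there. Above the floor the minimum-width shares were 19.1% (16.98 to 21.4) and 69.7% (66.8 to 72.5), and the intervals at and above the floor met in vehicle but not in GSK2879552. A summit in the outer 44 bp of the interval went with a share of 20% (15.3 to 25.4) in vehicle, against 18.2% (16.2 to 20.3) for the rest. In GSK2879552 these were 65.0% (58.99 to 70.6) and 68.3% (65.4 to 71.1). The 2 intervals met in both lists.

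The 309 overlapped vehicle minimum-width peaks each met a separate GSK2879552 peak, and the 906 of GSK2879552 each a separate vehicle peak. Partners were mostly wider. The GSK2879552 partners of vehicle minimum-width peaks had a median width of 193 bp (170 to 219, widest 425), below the 242 bp of all GSK2879552 peaks. The vehicle partners of GSK2879552 minimum-width peaks had a median of 234 bp (200 to 274.75, widest 640), against 258 bp for all vehicle peaks. Summits of the 2 partners lay a median of 38 bp apart (15 to 66) in the first set and 28 bp (13 to 52) in the second.

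Only 71 sites were minimum-width peaks in both lists, which is 4.24% of the vehicle and 5.30% of the GSK2879552 ones. As a share of the overlapped ones they were 22.98% and 7.84%. Of all overlapped vehicle peaks, 6.91% had a minimum-width partner, and of all overlapped GSK2879552 peaks 2.36%. In these 71 pairs the intervals shared a median of 149 bp (35 to 168), and the summits lay a median of 38 bp apart, at most 139 bp, with 13 pairs within 10 bp.

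The 4 such sites with the highest vehicle −log10 p had fewer fragments after GSK2879552 at each. At chr10:5913657-5913831 there were 13 fragments in vehicle and 10 in GSK2879552. The site at chr7:143022903-143023077 had 18 and 16, chr10:39093779-39093953 had 17 and 13, and chr16:35215863-35216037 had 13 and 12. They were ranked by their vehicle value, which favours a lower number in the other list. Over all 71 pairs the medians were 12 and 11 fragments, with 31 pairs lower, 21 equal and 19 higher in GSK2879552, and the log2 ratio, scaled by the background floors of the lists, had a median of -0.003 (interquartile range -0.14 to 0.09).

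Fragments at overlapped minimum-width peaks depended on the list in which the peak was narrow. Where the vehicle peak had the smallest width, vehicle had a median of 12 fragments and GSK2879552 of 13, and the median log2 ratio of GSK2879552 over vehicle was 0.10 (interquartile range -0.10 to 0.32, binomial 95% interval of the median -0.003 to 0.11). Numbers were lower in GSK2879552 at 86 of the 309 pairs (27.8%), equal at 60 and higher at 163 (52.8%). Over all overlapped vehicle peaks, 78.1% were lower and 16.2% higher. Where the GSK2879552 peak had the smallest width, the medians were 16 in vehicle and 12 in GSK2879552, with a median log2 ratio of -0.42 (-0.68 to -0.15, interval of the median -0.42 to -0.38). Of those 906 pairs 760 were lower in GSK2879552 (83.9%), 75 equal and 71 higher (7.84%), against 78.2% and 16.1% of all overlapped GSK2879552 peaks.

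Choosing a peak for its small width favours a low number in the list it was chosen in, and only sites called in the other list enter. The 2 sets are therefore described side by side and nothing is read from either alone. Wider peaks gave -0.34 when chosen in vehicle and -0.32 when chosen in GSK2879552. Where the vehicle peak was narrow, fragments before scaling were at least 2-fold lower in GSK2879552 at 0 of 309 pairs and higher at 2, against 4.07% and 0.046% of all overlapped vehicle peaks. Where the GSK2879552 peak was narrow, 70 of 906 pairs were at least 2-fold lower and 0 higher, against 4.14% and 0.0459% of all overlapped GSK2879552 peaks. No called peak of either list had fewer than 7 fragments, and the upper quartile of the narrow peaks was 13 in both sets. At most pairs a partner at least 2-fold below the narrow peak could therefore not be called. For those pairs the outcome was fixed beforehand, though not for narrow peaks with more fragments. The 2 counts of 0 are therefore not read as results.

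**Figure D4:**
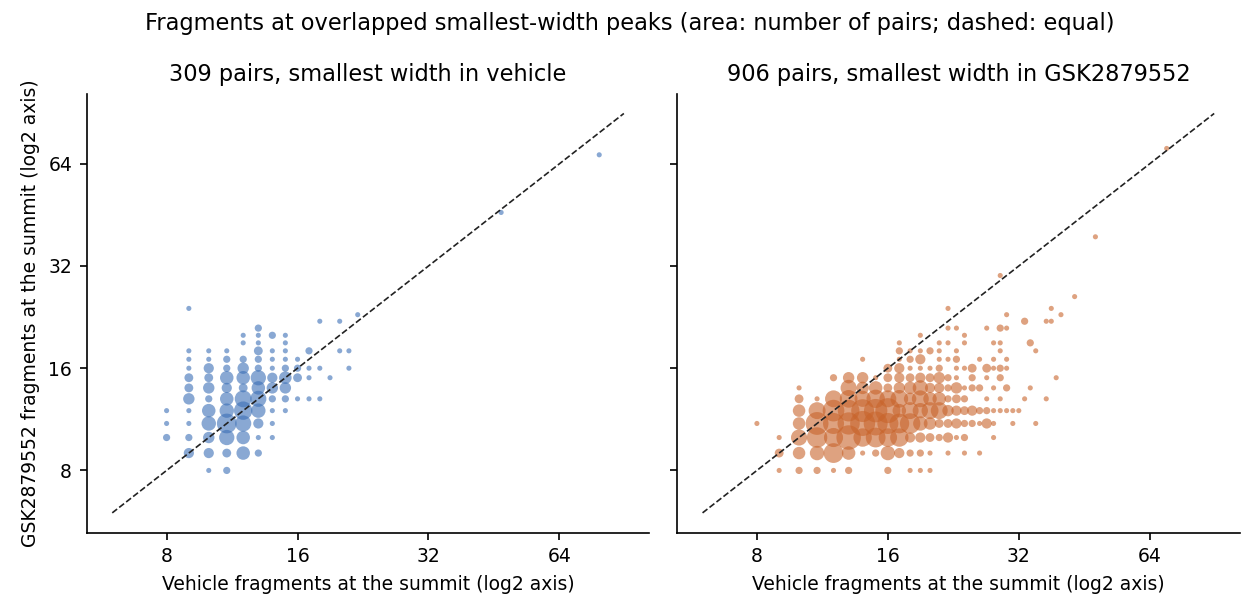
Fragments at the summit in vehicle (horizontal axis, log2 scale) and in GSK2879552 (vertical axis, log2 scale) at overlapped minimum-width peaks, chosen in the vehicle list on the left (309 pairs) and in the GSK2879552 list on the right (906 pairs); the area of a point is the number of pairs and the dashed line marks equal numbers. Points lie around the line on the left and mostly under it on the right, where 760 pairs were lower in GSK2879552.

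The extremes of these ratios, picked after their values were seen, were as follows. The vehicle peak at chr11:34946400-34946574 had 9 fragments and its GSK2879552 partner at chr11:34946399-34946644 had 24, a log2 ratio of 1.41. The lowest ratio among vehicle minimum-width peaks, -0.53, was a tie between pairs with 13 fragments and 9 in GSK2879552. One of them was at chr3:8953780-8953954. Among GSK2879552 minimum-width peaks the lowest, -1.67, was at chr2:187756114-187756281, where a 474 bp vehicle peak with 35 fragments met a GSK2879552 interval of the smallest width with 11. The highest, 0.48, was at chr18:56529985-56530152, with 14 fragments in GSK2879552 and 10 in vehicle.

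The strongest overlapped vehicle minimum-width peaks by the deposited −log10 p had 13 to 21 fragments. At chr6:9398371-9398545, with a −log10 p of 12.4, there were 21 fragments in vehicle and 16 in GSK2879552, in a partner of 173 bp. At chr16:35240267-35240441 there were 20 and 22, with summits 1 bp apart and a partner of 266 bp. At chr11:118787619-118787793 both lists had 15 fragments, and at chr8:60750036-60750210 both had 13. The site at chr18:72658401-72658575 had 21 and 18. Among these 5, GSK2879552 was lower at 2, equal at 2 and higher at 1.

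The strongest vehicle minimum-width peaks with no GSK2879552 overlap had a −log10 p of 11.4 to 12.0, within the 10.9 to 12.4 of the overlapped ones. The first, at chr10:33235117-33235291, had 22 fragments over a background of 3.26, a −log10 p of 12.0, and no GSK2879552 summit within 64182 bp. The peak at chr1:201118688-201118862 had 20 fragments and the nearest GSK2879552 summit 22653 bp away. The other 3 were on chromosome 8, at chr8:46866788-46866962, chr8:43805090-43805264 and chr8:43769898-43770072, with 20, 21 and 20 fragments and GSK2879552 summits 2020, 6366 and 2359 bp away.

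Overlapped GSK2879552 minimum-width peaks of the highest −log10 p had 14 to 30 fragments. The first, at chr10:76266343-76266510, had 30 fragments over a background of 6.05, and a vehicle partner of 277 bp with 29. At chrX:37409384-37409551 there were 14 fragments in GSK2879552 and 13 in vehicle. The site at chr11:50651069-50651236 had 17 and, in a 298 bp vehicle peak, 21. At chr3:90486866-90487033 the numbers were 18 and 17, with summits at the same base and a vehicle partner also of the smallest width, so this is another site of the smallest width in both lists. The fifth, at chr14:68894258-68894425, had 18 in GSK2879552 and 20 in vehicle.

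Those of GSK2879552 without vehicle overlap were led by 2 peaks on dense background on chromosome 10. These were chr10:42392221-42392388, described above, and chr10:42363379-42363546 with 59 fragments over 19.1; a vehicle summit lay 1417 and 1365 bp away. The next, at chr12:93385955-93386122, had 16 fragments over a background of 1.44 and the nearest vehicle summit 143237 bp away. At chr12:38037982-38038149 there were 20 fragments, with a vehicle summit 7242 bp away, and at chr8:109402096-109402263 there were 18, with one 20118 bp away.

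At the weak end, the vehicle peak at chr5:147572479-147572653 had 8 fragments, a fold of 3.38 and a −log10 p of 4.22, and that at chr3:121766201-121766375 had 7 fragments and 4.41. Neither overlapped a GSK2879552 peak. The weakest GSK2879552 peak, at chr17:39059983-39060150 with 10 fragments and a −log10 p of 4.73, did overlap a vehicle peak, one of 250 bp with 17 fragments. The second weakest, at chr12:92012320-92012487 with 8 fragments and 4.93, did not.

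A narrow peak could also be one part of a much wider interval in the other library. The widest GSK2879552 partners of vehicle minimum-width peaks were 425 bp at chr4:149436262-149436686, which had 14 fragments against 13 in the vehicle peak at chr4:149436294-149436468, and 359 bp at chr10:81691996-81692354, with 15 against 17. Another vehicle summit lay 279 bp from the former. The widest vehicle partners of GSK2879552 minimum-width peaks were 640 bp at chr3:96976924-96977563, with 17 fragments against 11, and 622 bp at chr9:83808425-83809046, with 16 against 9. At the latter the 2 summits were 377 bp apart, and another GSK2879552 summit lay 282 bp from the narrow one.

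Distances to neighbouring summits had higher medians at minimum-width than at wider peaks. In vehicle the median distance to the nearest summit of the same list was 27493 bp, against 23819 bp for wider peaks, whereas 36 of 1674 (2.15%) had one within 500 bp, against 1.75%, and 85 (5.08%) within 1000 bp, against 5.32%. In GSK2879552 the medians were 44909 and 34202 bp, and 13 of 1340 (0.970%) had a neighbour within 500 bp, against 1.58%, and 39 (2.91%) within 1000 bp, against 4.41%. Those few GSK2879552 peaks overlapped vehicle at 34 of 39 (87.2%, 72.6 to 95.7), compared with 67.0% (64.4 to 69.6) of the rest. In vehicle it was 21 of 85 (24.7%, 15.99 to 35.3) against 18.1% (16.3 to 20.1), intervals that meet.

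Minimum-width peaks without overlap were mostly far from any summit of the other list. Wider peaks without overlap were not measured in this way, so the distances are not shown to be particular to minimum-width peaks. Of the 1365 such vehicle peaks, 41 (3.004%) had a GSK2879552 summit within 1000 bp and 151 (11.1%) within 5000 bp, with a median distance of 47097 bp. Of the 434 such GSK2879552 peaks, 15 (3.46%) had a vehicle summit within 1000 bp and 64 (14.7%) within 5000 bp, with a median of 33816.5 bp. The most isolated, picked after seeing the values, were chr10:84882229-84882403 in vehicle, with 9 fragments and 2899701 bp to the nearest GSK2879552 summit, and chrX:2022542-2022709 in GSK2879552, with 9 fragments and 2564423 bp to the nearest vehicle summit.

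Every one of the 23 chromosomes carried minimum-width peaks in both lists. In vehicle their share of the chromosome's peaks ran from 5.20% on chromosome 17 to 10.3% on chromosome X, around 7.95% for the list. In GSK2879552 it ran from 5.82% on chromosome 8 to 16.9% on chromosome 22, where 14 of 83 peaks had the smallest width, around 9.15%. Chromosome 8 was low in both lists, with 79 of 1357 vehicle peaks (5.82%) and 57 of 979 in GSK2879552 (5.82%), and was the one chromosome whose interval left out the list's share in both. On all 23 chromosomes, in both lists, minimum-width peaks were overlapped less often than all peaks of the chromosome. Their overlapped share ran from 8.33% on chromosome 20 to 37.5% on chromosome 22 in vehicle, where it rests on 8 peaks, and from 51.1% on chromosome 13 to 82.4% on chromosome 20 in GSK2879552.

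**Figure D5:**
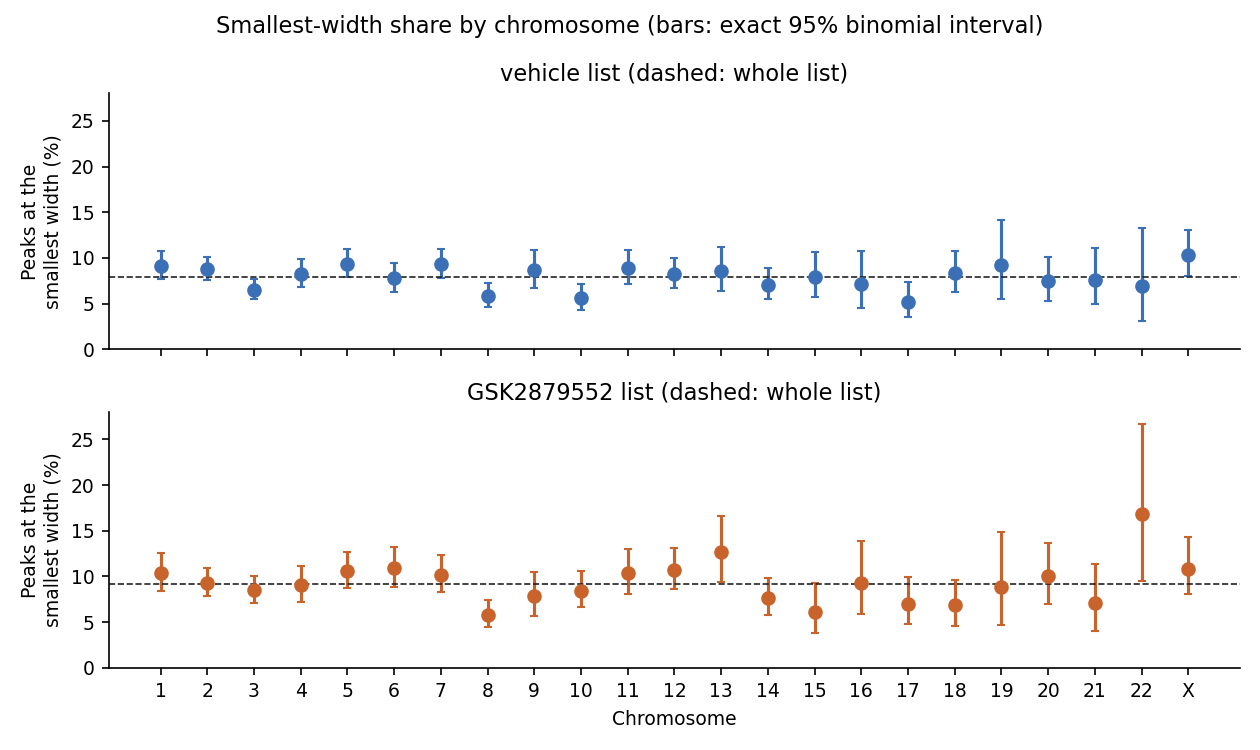
Percentage of each chromosome's peaks that have the smallest width (vertical axis) by chromosome (horizontal axis), vehicle above and GSK2879552 below; bars are exact 95% binomial intervals and the dashed line is the share over the list, 7.95% and 9.15%. Chromosome 8 lies under the line in both panels, and chromosome 22 in GSK2879552 is highest at 16.9% with a wide interval.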

How the data were processed

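FOXA2 ChIP-seq peaks were analysed in PC3 cells, 1 list per group, each covering 2 lanes. The submitters' processing notes name MACS2 2.1.2, BWA 0.7.2, SAMtools 0.1.18 and the build hg19; for options, threshold, control library and duplicates, the sources used here give nothing. Coordinates are hg19, counted from 1. The deposited values are a score (the whole-number part of 10 times the −log10 q), a fold (the ratio of fragments plus 1 to background plus 1), a −log10 p, a −log10 q and a summit offset. All are the authors' values per peak and describe or rank peaks within a list.

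Summit fragments were recovered as the whole number, below 1500, whose Poisson tail gave the deposited −log10 p; one matched within 0.001 for 100% of peaks. Another number also matched for 3 vehicle and 7 GSK2879552 peaks, and the closer one was used. Log2 ratios were scaled by the background floors, 1.079 and 1.082 fragments. Sequencing depth is not stated in the sources used here. Over the smallest width, the floors come to 6.17 reads per kb in vehicle and 6.44 in GSK2879552. They stand for depth only if the background was made from the ChIP reads, which is not known.

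Overlaps of 1 bp or more were also counted by bedtools 2.31.1, with 309 and 906 as here; recovery, overlap and matching were tested on simulated data (Python 3.11.15, scipy 1.17.1). Shares carry exact (Clopper-Pearson) 95% intervals, for counting error only; the matched differences carry normal intervals over fragment numbers, and peaks are treated as independent. No test between groups was made, with 1 list each.

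Named peaks are, per list, the 5 overlapped and 5 non-overlapped minimum-width peaks with the highest −log10 p, the 2 with the lowest, the 2 with the widest partners, and the 4 narrow in both lists with the highest vehicle −log10 p. The members, lists and alternatives were chosen with earlier results of these data known. Alternatives comprised other overlap rules, thresholds, sequences, width limits, backgrounds and matching. Sequences, motifs and gene locations of the peaks were not analysed here.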

Additional observations from a re-analysis of the deposited data

How the results depend on the processing

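Of 58 alternatives over 6 results, 43 stayed within the reported interval, 15 moved beyond it and 0 reversed a difference whose interval left out 0. Only the matched differences and the log2 ratio at GSK2879552 minimum-width peaks could reverse. A share cannot fall below 0, and the interval of the log2 ratio at vehicle ones included 0. For vehicle minimum-width peaks the overlapped share was 15.1% with both lists held to a −log10 q of at least 5 and 12.1% with the limit on the GSK2879552 list alone, where their difference from wider peaks of equal fragments was -8.63 points. That difference was -8.72 with matching on −log10 p in 20 bins, -8.43 with background matched too and -6.06 against peaks up to 20 bp wider. For GSK2879552 the share was 60.4% when 50% of both peaks had to be shared, and 63.5% with summits within 100 bp. It was also 60.4% with a −log10 q of at least 5 in the vehicle list alone, and 64.3% with both lists held to that −log10 q. With a vehicle list of equal length it was 42.2%. The GSK2879552 difference was -3.71 against peaks up to 20 bp wider and -12.9 at equal list length. The median log2 ratio at GSK2879552 minimum-width peaks was -0.45 for fragments above background and -0.37 with both lists at a −log10 q of at least 5. At vehicle ones it was -0.003 with widths up to 5 bp above the smallest included, within its interval. Fewer peaks by construction remain under stricter thresholds and overlap rules; for the others the cause was not tested. No paired analysis was possible because a group's 2 lanes share a list, which also prevents leaving one out. Motif, sequence and gene-location comparisons were not run. Depth may limit whether weak sites are called, and spread between cultures is not measured.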

Other observations

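Outside chromosomes 1 to 22 and X, the vehicle list held 243 peaks on chromosome Y and unplaced or unlocalized sequence, of which 13 had the smallest width, and the GSK2879552 list held 204, of which 9 had it. Of these, 3 vehicle and 3 GSK2879552 peaks overlapped the other list.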
